A study of Mus musculus with 12 samples.

Results

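The genes described here are 9 of the 18558 genes counted in RNA from the pyramidal layer of hippocampal area CA1: the cold-inducible RNA-binding protein genes Cirbp and Rbm3, and the chaperone genes Hspa5, Hsph1, Hsp90aa1, Dnajb1, Hspa1a, Hspa1b and Hspb1. They were taken by gene symbol and NCBI gene ID, and the set was selected on Cirbp being higher in libraries without NEIL2, so the values of Cirbp in comparisons that involve NEIL2 are given as a description with no test. NEIL1 and NEIL2 are DNA glycosylases, enzymes that cut oxidized bases out of DNA as the first step of base excision repair. The mice were males of strain background C57Bl6, given as C57BL/6 N in the study's methods, 3 to 6 months old, kept at 21 °C under 12 h of light a day and taken from the home cage with no intervention. The groups were 3 WT, 2 Neil1-/-, 3 Neil2-/- and 2 Neil1-/-Neil2-/- libraries, 1 mouse each. The knockout lines were backcrossed to this background and bred apart from the WT mice, which are therefore not littermates. A further 2 libraries, whose titles and genotype labels conflict, enter no group. The hour at which each mouse was killed and which of the study's animal facilities housed it are not given in the sources used here.

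Cells make cold-inducible RNA-binding proteins when their temperature drops mildly: CIRBP and RBM3 are small, closely related proteins that bind messenger RNA and hold up translation and transcript stability. Heat shock proteins are chaperones that bind unfolded proteins and help them fold, and the transcription factor HSF1 switches on their cytosolic members when unfolded protein builds up. The endoplasmic reticulum has chaperones of its own, under the control of the unfolded protein response. In neurons both kinds are also made at normal temperature, and transcripts of Cirbp and of several chaperones follow the daily rhythm of body temperature.

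The sequence before a start site is shown for 4 of the genes. Of these, 3 stood lower or higher as groups without NEIL2, and Hspa1b is the classical heat shock gene among the members. The sequences are from RefSeq (build GRCm38.p6), each on the strand of its gene, with positions counted back from the start site used. They stop where an annotated exon of the gene begins in GENCODE M21, and for Hspa5 only the stretch around the match is given, since an annotated exon begins further upstream. Capitals mark matches to the mild-cold response element TCCCCGCC, the heat shock element in its forms GAANNTTC and TTCNNGAA, and the endoplasmic reticulum stress element, which is CCAAT and CCACG with 9 bases between them; the E-box CACGTG was searched too, and all motifs on both strands.
Cirbp, chr10:80167589-80167777, plus strand: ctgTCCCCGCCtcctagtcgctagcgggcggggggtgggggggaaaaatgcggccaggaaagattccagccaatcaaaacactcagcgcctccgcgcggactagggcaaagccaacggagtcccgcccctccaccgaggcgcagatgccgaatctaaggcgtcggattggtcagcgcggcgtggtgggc
Hspa5, chr2:34772020-34772049, plus strand: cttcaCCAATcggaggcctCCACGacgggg
Hsph1, chr5:149636339-149636586, minus strand: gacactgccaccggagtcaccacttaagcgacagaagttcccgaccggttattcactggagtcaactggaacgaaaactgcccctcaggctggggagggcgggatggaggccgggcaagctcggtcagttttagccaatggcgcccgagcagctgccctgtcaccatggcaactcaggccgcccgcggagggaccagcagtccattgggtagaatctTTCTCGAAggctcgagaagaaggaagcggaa
Hspa1b, chr17:34959239-34959488, minus strand: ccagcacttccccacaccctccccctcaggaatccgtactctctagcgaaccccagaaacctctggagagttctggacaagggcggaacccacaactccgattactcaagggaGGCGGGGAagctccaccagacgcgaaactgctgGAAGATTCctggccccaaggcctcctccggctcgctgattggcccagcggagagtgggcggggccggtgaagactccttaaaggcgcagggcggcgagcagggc

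In the 250 bases before the start site, the mild-cold response element begins at −247 in Cirbp, and its reverse complement begins at −137 in Hspa1b. The heat shock element begins at −104 in Hspa1b and at −33 in Hsph1, and the stress element begins at −65 in Hspa5. Hspa1a carried the same matches at the same positions as Hspa1b. Hspb1 had 2 matches to GAANNTTC, the first at −117, and Dnajb1 had none of the 5 motifs. A second start site of Cirbp had no match, and that of Hsph1 had TTCNNGAA at −54 and an E-box at −19. The printed stretch of Cirbp lies inside the RefSeq span of the gene, which begins at 80165990. That of Hsph1 lies partly inside its span, which reaches 149636498, and so does the match. Sequence before the outer end of the Cirbp span was not searched as a promoter, and that before the outer end of the Hsph1 span only as far as 149636586. Of 32817 mouse promoters of this length, 4.64% held the mild-cold response element, 6.69% GAANNTTC, 7.16% TTCNNGAA, 6.02% the E-box and 0.113% the stress element. The matches are a description of letters, and no binding was measured.

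The 10 libraries of the 4 genotypes held 19618923 to 21970180 estimated counts, and levels are given as CPM, counts scaled by TMM to a common library size. Defining markers of CA1 pyramidal neurons were present in every library, with a summed level over 10 genes of 2428 to 2852 CPM with NEIL2 and 2629 to 3047 CPM without it. Oligodendrocyte markers summed to 505 to 683 CPM and 502 to 1259 CPM in the same order, and Neil1-/-Neil2-/- replicate 1 stood apart on the first principal component (43.9 against −21.1 to 10.9 in the others). Neil2 had 5 to 10 counts in each library of WT and Neil1-/- mice and 0 in all 5 libraries of mice lacking NEIL2. Neil1 transcript was higher in Neil1-/- mice, at 6.82 ± 1.20 CPM (SD, n = 2) against 3.58 ± 0.773 (SD, n = 3) in WT, and since the exons behind these counts are unknown, Neil1 does not check the label. None of the 9 genes lies on chromosome 9 or 14, where Neil1 and Neil2 are. In RNA from pooled cells, fewer cells of a type and less RNA per cell cannot be told apart.

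Per kilobase of annotated exon, the order of the levels in WT was Hsp90aa1 (502 CPM per kb), Hsph1 (97.1), Hspa5 (71.4), Rbm3 (27.6), Cirbp (23.9), Dnajb1 (18.7), Hspa1b (9.40), Hspa1a (7.83) and Hspb1 (2.10). Rbm3 (27.6 ± 3.94 CPM per kb, SD, n = 3) and Cirbp (23.9 ± 2.92) did not differ beyond their spread, and neither did Hspa1b (9.40 ± 1.53) and Hspa1a (7.83 ± 1.20). The other neighbours in this order stood further apart than their SDs. Hspb1, the lowest, had 27 to 61 counts in a library. The length of each gene merged the exons of all its annotated transcripts, 3576 bases for Rbm3 and 1321 for Cirbp, and the order depends on it. In CPM, the WT means were 98.8 for Rbm3 and 31.6 for Cirbp.

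Across the genotypes the cold-inducible pair stood higher and 2 chaperone genes stood lower in mice without NEIL2, while the inducible HSP70 genes and Hsp90aa1 did not pass the test in any comparison. In the additive comparison of the 5 libraries without NEIL2 with the 5 that have it, the 8 genes other than Cirbp gave 3 calls at an adjusted p under 0.05 in edgeR's quasi-likelihood test: Rbm3 rose, and Hspa5 and Hsph1 fell. Over all 13982 genes tested 209 were called (1.49%), 102 higher and 107 lower. The median log2 fold change of the 8 genes was −0.21, against 0.00 over all genes.

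**Figure D1:**
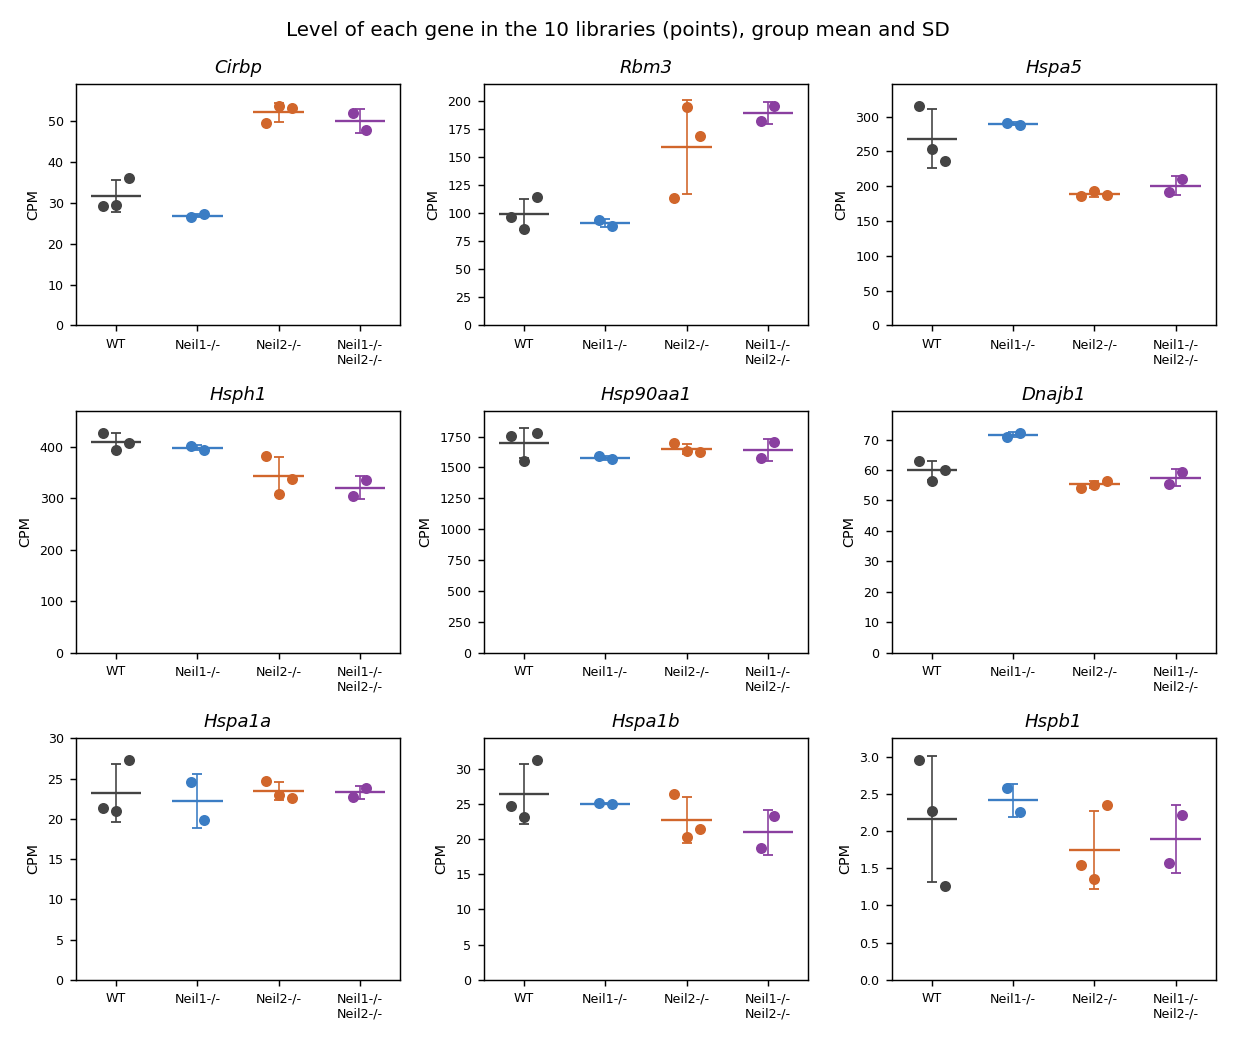
Level of each of the 9 genes in CPM (vertical axes, from 0) in the 10 libraries by genotype; points are single mice, horizontal bars group means and whiskers the SD. All 5 points of Cirbp without NEIL2 lie above 47 CPM and all 5 with it below 37 CPM, Hspa5 shows the opposite order, and Hspa1a, Hsp90aa1 and Hspb1 overlap between the genotypes.

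Cirbp (gene 12696, chromosome 10 of GRCm38 from 80165990 to 80172786) encodes the cold-inducible RNA-binding protein. It was at 29.2, 29.5 and 36.0 CPM in the WT libraries, 26.5 and 27.2 in Neil1-/-, 49.5, 53.7 and 53.1 in Neil2-/-, and 52.0 and 47.9 in Neil1-/-Neil2-/- libraries. The libraries without NEIL2 did not overlap those with it, and their mean was 1.72 times as high. Group means were 31.6 ± 3.85 CPM (SD, n = 3) in WT, 26.9 ± 0.475 (SD, n = 2) in Neil1-/-, 52.1 ± 2.29 (SD, n = 3) for Neil2-/- and 49.9 ± 2.90 (SD, n = 2) for Neil1-/-Neil2-/- mice. The log2 fold change was 0.79 (standard error 0.07) for the additive loss of NEIL2, 0.72 (standard error 0.09) in Neil2-/- against WT and 0.66 (standard error 0.10) in Neil1-/-Neil2-/- against WT. These values chose the set, and the last 2 comparisons share the WT libraries. Of all genes tested, 515 (3.68%) had no overlap between the libraries without NEIL2 and those with it, 258 higher and 257 lower.

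The comparisons on NEIL1 were not used to choose Cirbp. In Neil1-/- mice Cirbp lay below every WT library, with a log2 fold change of −0.23 (standard error 0.10, unadjusted p = 0.0435, adjusted p = 0.547 by edgeR's quasi-likelihood test). For the additive loss of NEIL1 it was −0.14 (standard error 0.07, adjusted p = 0.401 by the same test). Neither passed the test.

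Rbm3 (gene 19652, chromosome X from 8138975 to 8145880) encodes the relative of CIRBP that is known from mouse neurons for preserving synapses in the cold. It was at 96.3, 86.2 and 114 CPM in WT, 93.9 and 88.8 in Neil1-/-, 113, 195 and 168 in Neil2-/-, and 182 and 196 in Neil1-/-Neil2-/- libraries. Of the 5 libraries without NEIL2, 4 lay above every library with it, and Neil2-/- replicate 1 lay within the range of WT, at 113.4 CPM against 114.0 in WT replicate 3. The additive loss of NEIL2 gave a log2 fold change of 0.83 (standard error 0.13, adjusted p = 0.00818 by edgeR's quasi-likelihood test), which passed in each of 17 alternative settings, leaving out each library included. In Neil2-/- against WT it was 0.68 (standard error 0.16, adjusted p = 0.136 by the same test) and became 0.88 without Neil2-/- replicate 1 (adjusted p = 0.00699). In Neil1-/-Neil2-/- against WT it was 0.93 (standard error 0.17, adjusted p = 0.0515 by the same test).

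The knockouts were also set against WT 1 by 1. None of the 8 genes other than Cirbp was called in Neil2-/- mice, where 0.300% of all genes were, and none in Neil1-/-Neil2-/- mice, where 0.322% were. At an unadjusted p under 0.05 in edgeR's quasi-likelihood test there were 3 and 4 of the 8 genes, and 1349 and 1546 of all 13982 genes. DESeq2 called 2 and 3 of the 8, and its larger totals over all genes are given below.

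Hspa5 (gene 14828, chromosome 2 from 34772090 to 34776529) encodes BiP, the HSP70 of the endoplasmic reticulum and the sensor-binding chaperone of the unfolded protein response. It was at 316, 253 and 236 CPM in WT, 291 and 288 in Neil1-/-, 186, 193 and 188 in Neil2-/-, and 191 and 211 in Neil1-/-Neil2-/- libraries. All 5 libraries without NEIL2 lay below all 5 with it, as they did for 257 of the 13982 genes tested. The WT libraries spread more widely (SD 42.1, n = 3) than the Neil2-/- ones (SD 3.92, n = 3). The additive loss of NEIL2 gave a log2 fold change of −0.51 (standard error 0.07, adjusted p = 0.00309 by edgeR's quasi-likelihood test), and it passed in each of 17 alternative settings. In Neil2-/- against WT it was −0.50 (standard error 0.09, adjusted p = 0.0515 by the same test), just outside the threshold, and −0.42 (standard error 0.11, adjusted p = 0.156) in Neil1-/-Neil2-/- against WT.

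Hsph1 (gene 15505, chromosome 5 from 149616843 to 149636498) encodes HSP105, an HSP110 chaperone that exchanges the nucleotide of HSP70 and takes part in dissolving protein aggregates. It was at 428, 394 and 408 CPM in WT, 403 and 395 in Neil1-/-, 382, 309 and 338 in Neil2-/-, and 305 and 337 in Neil1-/-Neil2-/- libraries. The libraries without NEIL2 lay below the others, as for 257 of the 13982 genes tested. The nearest values were 382 CPM in Neil2-/- replicate 1 and 394 CPM in WT replicate 2. The log2 fold change for the additive loss of NEIL2 was −0.28 (standard error 0.06, adjusted p = 0.0343 by edgeR's quasi-likelihood test). This call held in 7 of 17 alternative settings: it was lost, among other settings, without any one of WT replicate 1 or 3, either Neil1-/- replicate, Neil2-/- replicate 2 or 3 or either Neil1-/-Neil2-/- replicate, and with no abundance trend (adjusted p up to 0.107 by the same test). Against WT it was −0.26 in Neil2-/- (adjusted p = 0.294 by the same test) and −0.35 (adjusted p = 0.147) in Neil1-/-Neil2-/- mice.

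**Figure D2:**
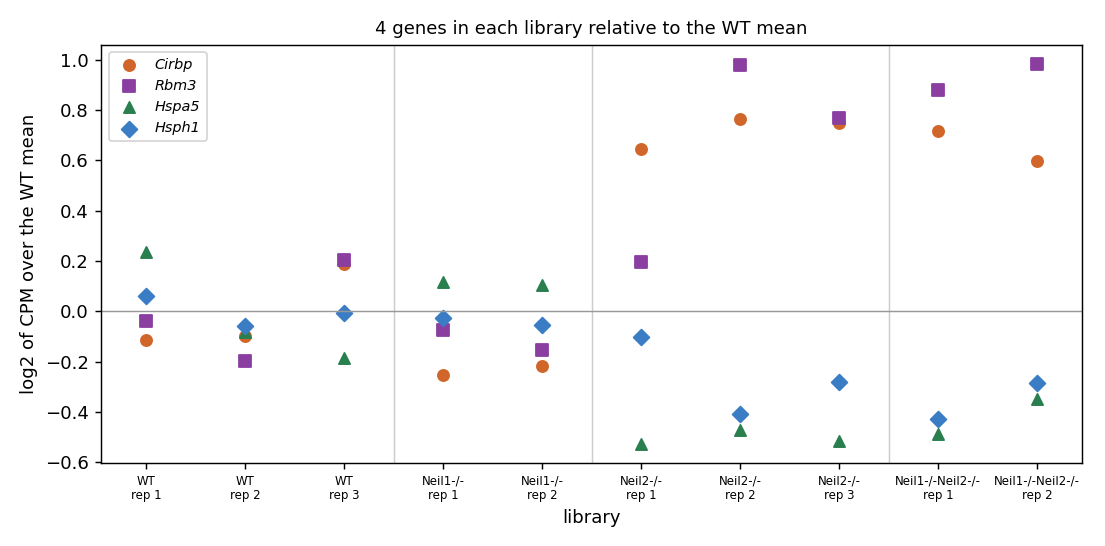
Level of Cirbp, Rbm3, Hspa5 and Hsph1 in each of the 10 libraries as log2 of CPM over the WT mean (vertical axis), with libraries in order of genotype along the horizontal axis and grey lines between genotypes. In Neil2-/- replicate 1 Cirbp stands at 0.65 and Hspa5 at −0.53, near the other libraries without NEIL2, while Rbm3 stands at 0.20 and Hsph1 at −0.10, near WT.

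The 4 genes stood differently in Neil2-/- replicate 1. There Cirbp stood at 0.65 and Hspa5 at −0.53 relative to the WT mean on the log2 scale, both far from every WT library. Rbm3 at 0.20 and Hsph1 at −0.10 lay close to WT replicate 3 (0.21) and WT replicate 2 (−0.06). Across the 10 libraries the correlation of log2 CPM was −0.96 between Cirbp and Hspa5 and −0.91 between Rbm3 and Hsph1, as a description over points that share genotypes. The other pairs were close to these, at 0.89 between Cirbp and Rbm3, −0.83 between Cirbp and Hsph1, 0.79 between Hspa5 and Hsph1 and −0.78 between Rbm3 and Hspa5. After the mean of each genotype was taken off, it was −0.67 between Cirbp and Hspa5, −0.64 between Rbm3 and Hsph1, 0.60 between Cirbp and Rbm3, −0.44 between Cirbp and Hsph1, 0.26 between Hspa5 and Hsph1 and −0.01 between Rbm3 and Hspa5.

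Dnajb1 (gene 81489, chromosome 8 from 83608175 to 83612653) encodes HSP40, which hands unfolded proteins to HSP70. It was at 63.0, 56.5 and 60.1 CPM in WT, 71.0 and 72.2 in Neil1-/-, 54.2, 55.2 and 56.5 in Neil2-/-, and 55.5 and 59.5 in Neil1-/-Neil2-/- libraries. Both Neil1-/- libraries lay above every other library. The log2 fold change in Neil1-/- against WT was 0.26 (standard error 0.07, unadjusted p = 0.00463, adjusted p = 0.376 by edgeR's quasi-likelihood test), and for the additive loss of NEIL1 it was 0.16 (standard error 0.06, adjusted p = 0.278). For the additive loss of NEIL2 it was −0.19 (standard error 0.06, adjusted p = 0.113 by the same test), and DESeq2 gave an adjusted p of 0.0433.

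None of the 8 genes other than Cirbp was called in Neil1-/- against WT, where 0.200% of all genes were, or for the additive loss of NEIL1, where 0.336% were. The unadjusted p of edgeR's quasi-likelihood test was under 0.05 for 1 of the 8 in each comparison, and for 1256 and 1930 of all 13982 genes. DESeq2 called 0 of the 8. The interaction, which asks whether the double knockout departs from the sum of the single ones, called none of the 8 either (0.0930% of all genes, 0 of the 8 at an unadjusted p under 0.05, 0 with DESeq2). The largest estimate was that of Rbm3, at 0.36 (standard error 0.25, adjusted p = 0.906 by the same test), with a 95% interval from −0.13 to 0.86. For Cirbp the interaction estimate was 0.17 (standard error 0.14), with a 95% interval from −0.11 to 0.45, given with no test.

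**Figure D3:**
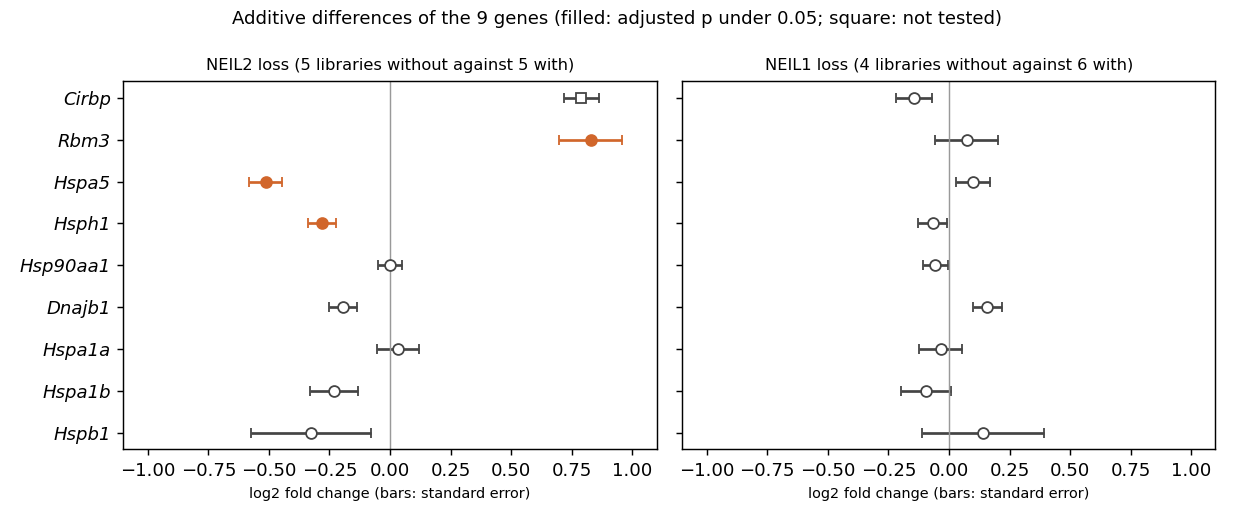
Log2 fold change (horizontal axis, bars are standard errors) of the 9 genes for the additive loss of NEIL2, left, and of NEIL1, right. Filled points passed the test at an adjusted p under 0.05 and the squares for Cirbp and NEIL2 mark a value with no test; on the left Cirbp (0.79) and Rbm3 (0.83) stand to the right of 0 and Hspa5 (−0.51) and Hsph1 (−0.28) to the left, and on the right no point is filled.

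The remaining chaperone genes did not pass the test for the loss of NEIL2. Hsp90aa1 (gene 15519, chromosome 12), the inducible HSP90, lay at 1555 to 1781 CPM with NEIL2 and 1575 to 1706 CPM without it, and its log2 fold change was −0.00 with a 95% interval from −0.10 to 0.10 (adjusted p = 0.993 by edgeR's quasi-likelihood test). Hspa1a and Hspa1b (genes 193740 and 15511, chromosome 17) are near-identical copies of the gene for inducible HSP70, and none of their 12 values was a whole number, so reads were shared between them and the values of each are uncertain. Hspa1a lay at 19.9 to 27.3 CPM with NEIL2 and 22.6 to 24.7 CPM without it (log2 fold change 0.03, adjusted p = 0.891 by the same test). Hspa1b lay at 23.2 to 31.2 CPM and 18.7 to 26.4 CPM in the same order (log2 fold change −0.23, adjusted p = 0.279). Summed before the fit, the pair had a log2 fold change of −0.10 (adjusted p = 0.612 by the same test) and ran from 44.2 to 58.5 CPM with NEIL2 and from 41.4 to 51.1 CPM without it.

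Hspb1 (gene 15507, chromosome 5 from 135887919 to 135889563), which encodes the small heat shock protein HSP27 that holds unfolded proteins in solution, lay at 1.26 to 2.96 CPM with NEIL2 and 1.35 to 2.35 CPM without it. Its log2 fold change was −0.33 (adjusted p = 0.564 by edgeR's quasi-likelihood test), with a 95% interval from −0.81 to 0.16, which spans changes as large as that of Hspa5.

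Beside these genes, 10 lists of related genes were counted in the additive comparison for NEIL2. There edgeR called 209 of all 13982 genes (1.49%), 102 higher and 107 lower, and DESeq2 called 630. Of 19 other chaperones and folding enzymes of the endoplasmic reticulum, 6 fell and none rose in edgeR's test. The median log2 fold change of the list was −0.14, against 0.00 over all genes. It was −0.13 in the list of HSP90 partners and −0.12 in the list of genes linked to temperature. At an unadjusted p under 0.05 in edgeR's test, 10 of the 19 were lower and 0 higher, against 2255 of all genes in either direction. The protein disulfide isomerase gene Pdia6 was at 119 ± 10.1 CPM (SD, n = 3) in WT mice and 129.9 ± 0.689 (SD, n = 2) in Neil1-/- mice, against 85.6 ± 2.84 (SD, n = 3) for Neil2-/- mice and 88.8 ± 12.4 (SD, n = 2) for the double knockout. Its additive log2 fold change was −0.50 (adjusted p = 0.0026 by edgeR's quasi-likelihood test), and those of Pdia3, a disulfide isomerase for glycoproteins, Calr, the lectin chaperone calreticulin, and Manf, a secreted protein of the stressed endoplasmic reticulum, were −0.32, −0.31 and −0.41. The other pair that fell was Pdia4 and Hsp90b1. Leaving out 1 library at a time, 3 to 6 of the 19 genes fell and none rose. The count was 3 in 7 of these 10 settings, namely without WT replicate 1 or any one of the Neil1-/- replicates, Neil2-/- replicates 1 and 2 and the Neil1-/-Neil2-/- replicates. It was also 3 with no abundance trend, and 8 with DESeq2.

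**Figure D4:**
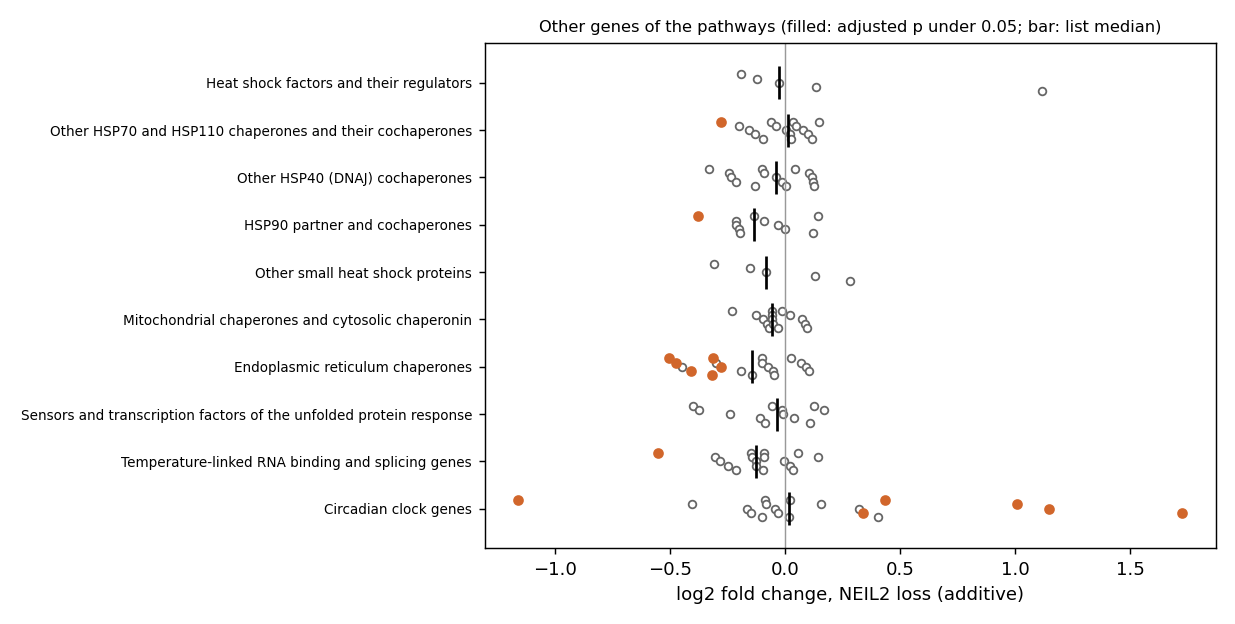
Log2 fold change for the additive loss of NEIL2 (horizontal axis) of every tested gene in 10 lists of related genes (vertical axis); filled points passed the test at an adjusted p under 0.05 and black bars are list medians. The 6 filled points of the endoplasmic reticulum list lie left of 0, and the circadian list holds 5 filled points to the right and 1 to the left.

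Of 12 sensors and transcription factors of the unfolded protein response, none passed edgeR's quasi-likelihood test. In this list 3 were lower at an unadjusted p under 0.05, which 2255 of all 13982 genes reached in either direction. In this list 1 gene was called lower with DESeq2, with no filter on low counts and without WT replicate 3. The cytosolic lists held few calls. Among 16 other HSP70 and HSP110 chaperones and cochaperones only Stip1, which links HSP70 to HSP90, fell (log2 fold change −0.28, adjusted p = 0.00943 by the same test). In that list 3 genes were lower and 0 higher at an unadjusted p under 0.05, and the median log2 fold change was 0.01. Among 11 partners of HSP90 only Chordc1 fell (log2 fold change −0.38, adjusted p = 0.0355 by the same test). There 6 genes were lower and 1 higher at an unadjusted p under 0.05, with a median of −0.13. No partner of HSP90 was called with no abundance trend, with a replicate block or in 9 of the 10 settings that left out 1 library, all but that without WT replicate 3, and DESeq2 called 3 lower. In edgeR's quasi-likelihood test no call was made among 15 HSP40 genes or 15 mitochondrial chaperones and subunits of the cytosolic chaperonin. There was also none among 5 other small heat shock protein genes and 5 heat shock factors and their regulators. In the same order, the members at an unadjusted p under 0.05 numbered 5, 2, 0 and 2, against 2255 of all 13982 genes. DESeq2 called 4 of the HSP40 genes lower and none of the other 3 lists, and 1 HSP40 gene was called lower with no filter on low counts and without WT replicate 2.

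Of 17 genes linked to temperature, most of them for RNA binding or splicing, only Tra2a, a regulator of alternative exons, fell in edgeR's quasi-likelihood test (log2 fold change −0.55, adjusted p = 0.0026), and DESeq2 called 4 lower. At an unadjusted p under 0.05 in edgeR's test, 7 of the 17 were lower and 0 higher, and their median log2 fold change was −0.12. Among 19 circadian clock genes 5 rose and 1 fell, and 3 rose without WT replicate 1 or with no abundance trend. Ciart, a repressor of the clock, Nr1d1, which encodes the receptor REV-ERBα, and Dbp, an output gene, had log2 fold changes of 1.73, 1.15 and 1.01, and Nfil3, the repressor that opposes DBP, had −1.16. The part of the clock genes' daily phase in the values of Cirbp, Rbm3 and Hspa5 was not tested.

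In the comparisons with WT, the lists held few calls. In Neil2-/- mice Pdia3 (−0.34), Pdia6 (−0.47) and Tra2a (−0.45) fell and Ciart, Nr1d1 and Dbp rose. In Neil1-/-Neil2-/- mice Ciart and Nr1d1 rose and the HSP40 gene Dnaja4 fell (log2 fold change −0.80, adjusted p = 0.00494 by edgeR's quasi-likelihood test). In Neil1-/- mice only Cryab, the small heat shock protein αB-crystallin, fell among these genes (log2 fold change −1.20, adjusted p = 0.00648 by the same test). For the additive loss of NEIL1 the same pair was lower, at log2 fold changes of −0.55 for Dnaja4 and −0.80 for Cryab. Only the genes of the set, not those of the lists, were checked for lying on the chromosomes of Neil1 and Neil2. The study's methods describe variants of another strain that remained after backcrossing, and their part in these calls was not tested.

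The genes most like Cirbp over the 10 libraries were ranked by Pearson's r of log2 CPM among all genes tested, as a description of points that share genotypes and libraries. The highest were Lacc1 (0.97), Kcnj4 (0.95), Nkapd1 (0.95), Klf15 (0.94) and Alg2 (0.94). After the mean of each genotype was taken off, Klf15 kept 0.85 and the other 4 lay between 0.51 and 0.63. Among the lowest were Pdia6 (−0.97), Caprin1 (−0.96), Hnrnpc (−0.96) and Rngtt (−0.96), with −0.91 to −0.46 after the genotype means were taken off. Pdia6, of the endoplasmic reticulum list, was among the 5 genes most opposed to Cirbp, and Hspa5 had nearly the same r (−0.96). Where the ranked genes lie relative to Neil2 was not examined, and the part of strain variants near it in their values was not tested.

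The summed levels of astrocyte, endothelial and mural, microglial, blood, choroid plexus, interneuron, thalamus and striatum, and dentate gyrus and CA3 markers overlapped between the libraries with and without NEIL2, and none of these marker genes was at 0 in all 10 libraries. The 1 marker called for the additive loss of NEIL2 was Cldn5 of endothelial cells (log2 fold change −0.77, adjusted p = 0.00818 by edgeR's quasi-likelihood test). In Neil1-/-Neil2-/- against WT, 9 of 10 oligodendrocyte markers were higher at an unadjusted p under 0.05 and none passed the same test after adjustment. Of all 13982 genes, 1546 had an unadjusted p under 0.05 there, in either direction. The dopamine and adenosine receptor genes Drd1, Adora2a and Drd2, markers of striatum, rose in that comparison, with log2 fold changes of 3.57, 3.28 and 2.94 (adjusted p = 0.00194, 0.0144 and 0.0403 by the same test). Drd1 was at 7.44 ± 4.19 CPM (SD, n = 2) in Neil1-/-Neil2-/- and 0.619 ± 0.238 (SD, n = 3) in WT mice. In Neil2-/- against WT Npy, of interneurons, and Cldn5 fell by 0.81 and 0.93 on the log2 scale (adjusted p = 0.0012 and 0.0216 by the same test). The part of these markers in the values of the 9 genes was not tested. Without Neil1-/-Neil2-/- replicate 1, which held the most oligodendrocyte marker transcript, 2 of the 8 genes were called for the loss of NEIL2 (Rbm3 and Hspa5). The call of Hsph1 was lost there, as it was without any one of several other libraries. The log2 fold change of Cirbp stayed between 0.76 and 0.86 whichever library was left out.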

How the data were processed

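RNA was read from laser dissectates of the CA1 pyramidal layer of dorsal hippocampus, cut from 8-µm sections. The deposited values are estimated counts per gene, which the authors' sequencing company made with RSEM on Bowtie2 alignments to GRCm38, with 100-bp paired reads of poly-A RNA; the processing notes also name HISAT, StringTie and GATK, with no versions. The estimated counts are not normalized and 87.8% of them are whole. Of 18558 gene IDs, 18429 matched RefSeq. The study left out 2 outlying libraries that the sources used here do not name. By its group sizes 1 was a Neil1-/- and 1 a Neil1-/-Neil2-/- mouse, and they may be among the 10 libraries used here.

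Counts were rounded, filtered (filterByExpr, minimum count 10), scaled by TMM and fitted with edgeR 4.0.16 (R 4.3.3) over the 10 grouped libraries, with 1 mean per genotype or additive terms for NEIL1 and NEIL2. The p-values are 2-sided, come from glmQLFTest and were adjusted by Benjamini-Hochberg over the genes tested in each of 6 comparisons, with a threshold of 0.05. The 95% intervals assume a normal error of the estimate. Correlations used log2 CPM with a prior count of 2. Whether the mice came from separate litters is not stated, so p-values measure the spread between these mice.

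The members and all lists were chosen with earlier results of these data known. The genes named are the 9 members, list members called in any comparison (at most the 4 with the smallest p in a list and comparison), and the 5 genes with the highest and lowest r with Cirbp, of which 1 is not reported here; Pdia4 and Hsp90b1 were named after their values were seen. Alternatives were a fit of only the groups compared, no filter, DESeq2 1.42.0, robust fitting, median-ratio scaling, a replicate block, no abundance trend, voom of limma 3.58.1, Hspa1a and Hspa1b summed, and each library left out. The list counts under these settings were added after seeing the data. Figures were drawn with matplotlib 3.10.9.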

Additional observations from a re-analysis of the deposited data

Results flagged for a closer look

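In 2 libraries that entered no comparison, 4 values lay above the highest WT library. In the library titled as a double knockout and labelled Neil1-/-, Cirbp was at 44.3 CPM and Rbm3 at 168 CPM, against WT maxima of 36.0 and 114 CPM. In the library titled Neil1-/- and labelled as a double knockout, Hspa5 was at 326 CPM and Dnajb1 at 66.1 CPM, against WT maxima of 316 and 63.0 CPM. Each is 1 library with no group, so these values were compared with no test.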

How the results depend on the processing

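For the additive loss of NEIL2, Rbm3 (log2 fold change 0.76 to 0.95) and Hspa5 (−0.56 to −0.44) passed the test in each of 17 alternative settings, Hsph1 in 7 and Dnajb1 only with DESeq2, and Cirbp, with no test, ran from 0.76 to 0.86. Against WT, Rbm3 passed in 3 of 18 settings in Neil2-/- and 7 of 18 in Neil1-/-Neil2-/- mice, and Hspa5 in 4 and 1. With no filter on low counts, 44, 64 and 135 genes were called in Neil1-/-, Neil2-/- and Neil1-/-Neil2-/- mice against WT, 22 for the interaction and 106 for NEIL1, and 2 and 1 of the 8 genes other than Cirbp in Neil2-/- and Neil1-/-Neil2-/- mice. DESeq2 called 86, 158, 186, 30, 241 and, for NEIL2, 630 genes in the same order, with 2 and 3 of the 8. With no abundance trend 27 genes were called in Neil2-/- mice and 110 for NEIL2. Robust fitting called 1 of the 8 in Neil2-/- mice, and only the groups compared gave 1 in Neil1-/-Neil2-/- mice. Hsp90aa1, near 0, turned sign with median-ratio scaling (0.00065) and DESeq2 (0.00064), and Hspa1a with Hspa1b summed in (−0.10).

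Leaving out 1 library at a time, the genes called numbered 17 to 26 in Neil1-/-, 15 to 48 in Neil2-/- and 17 (without Neil1-/-Neil2-/- replicate 1) to 247 (without replicate 2) in Neil1-/-Neil2-/- mice, 10 to 41 for the interaction, 28 to 79 for NEIL1 and 69 (without WT replicate 1) to 215 for NEIL2. The 8 genes gave 0 to 1 calls in either group of mice without NEIL2. For NEIL2 Hspa1a ran from −0.024 to 0.11 and Hsp90aa1 from −0.029 to 0.023. Where 1 of a pair of mice is left out, the spread of the lone mouse is taken from the other groups. Of 31 further values of these genes, not given in the text, 16 turned sign under some setting and none was called under any.

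The replicate numbers did not pair the mice: deviations of same-numbered libraries from their group means correlated at −0.17 to 0.19. With a replicate block 18 genes were called in Neil2-/- mice against WT and the call of Hsph1 was lost (adjusted p = 0.0603 by edgeR's quasi-likelihood test). The causes of these shifts were not tested.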

Other observations

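The library titled as a double knockout and labelled Neil1-/- held Hspa5 at 206 CPM, Hsph1 at 350 CPM and Dnajb1 at 59.6 CPM. The library titled Neil1-/- and labelled as a double knockout held Cirbp at 25.3 CPM, Rbm3 at 95.9 CPM and Hsph1 at 422 CPM. Neil2 had 0 counts in the library titled as a double knockout and 3 counts in the library titled Neil1-/-. The Neil2 values go with the titles and not with the labels, at very few counts. Neither library was assigned to a genotype from these values.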
